A study of Sus scrofa with 33 samples.

Results

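The mitochondrial chaperones and proteases examined here were TRAP1, HSPA9, HSPD1, HSPE1, GRPEL1, LONP1, CLPP and AFG3L2, 8 genes in all. They were followed in the pituitary of pigs kept under thermoneutral conditions (TN) or exposed to heat (heat stress, HS). Members were all probes whose gene name, or whose symbol in the probe description, was that of 1 of these genes. This gave 33 probes for 7 of the 8 genes. After the filter on dim probes, 31 probes of 6 genes remained, among 47083 kept probes in the whole series and 9821 named genes. HSPD1 kept 21 probes, HSPE1 6 and TRAP1, HSPA9, LONP1 and CLPP 1 each. The genes were selected on their log2 difference between HS and TN in these same arrays, of which TRAP1 and HSPA9 were known to be higher in HS, so that difference is described for them without a test. The breed comparisons were not part of that choice and were tested.

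The pigs were castrated males of 3 genetic groups, Large White (LW), Creole (CR) and their F1 cross, moved to climatic rooms at 11 weeks of age. The TN animals were killed first, at the lower temperature, and the HS animals after 4 or 5 days of exposure. There were 5 LW TN, 6 LW HS, 5 CR TN, 6 CR HS, 6 F1 TN and 5 F1 HS pigs, each with 1 array of its own. Per the methods of the study, pigs of a breed included littermates, and the tests below treat them as independent. The temperature field of the samples held 24 °C (TN) or 30 °C (HS), but the design text named 32 °C. Slaughter day and age cannot be told apart from temperature. On LW HS 3 the title named Large White and the breed field Creole, and it was used as Large White. The tissue was labelled pituitary gland and taken from the anterior lobe per the methods of the study. All 12 anterior pituitary markers looked for were measured. All 6 markers of the posterior lobe and glia, AVP and OXT included, were also measured.

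Most mitochondrial proteins are made in the cytosol, imported unfolded and folded inside the organelle. HSPA9 (mortalin), the matrix Hsp70, pulls the incoming chain through the import channel, and GRPEL1 exchanges its nucleotide. HSPD1 (Hsp60) forms the barrel of the chaperonin, in which proteins fold, and HSPE1 (Hsp10) is its lid. TRAP1 is the mitochondrial member of the Hsp90 family. LONP1 and CLPP degrade misfolded matrix proteins, and AFG3L2 is a subunit of a protease of the inner membrane. In the RefSeq table of pig genes (Sscrofa11.1) HSPD1 and HSPE1 were direct neighbours, and in mammals they are known to be transcribed from a shared promoter region.

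Values are log2 of quantile-normalized spot intensity, and differences are in log2 units. Levels were not compared between probes, since probes differ in brightness. Each probe is an oligonucleotide of 60 bases. The sequences of the probes on which the results turn are given here as the array files print them, 5′ to 3′. Whether the probes named O plus a number lie on the strand of the transcript was not tested, and a probe on the opposite strand would not read the gene it is named for. Among members this doubt bears on O9126 (HSPA9), O12159 (CLPP), O10647 (TRAP1) and O3429 (HSPD1), since their reverse complements may be the coding strand. It also holds for other genes below that were read by probes named O plus a number. These include NDUFS4, CNTN3, PHF2, PFN2, PRDX2, HSCB, BCS1L, PHB, DNLZ, HTRA2, GFER, TOMM5, ASNS, CHAC1, COX4I1, UQCRC2, HBB and AVP. Their values may not be the levels of the genes. O8477 (HSPE1) shares bases with a probe named A_72 on the same strand. On the array, 1768 such probes shared 20 bases with the same strand of a probe named A_72, 149 with the opposite strand alone, and 7598 with neither. The only kept TRAP1 probe, which carries the largest breed difference among the member probes outside HSPE1, and the TRAP1 probe that was too dim to be kept were these.

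TRAP1 A_72_P063446: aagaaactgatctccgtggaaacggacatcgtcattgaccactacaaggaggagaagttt

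TRAP1 O10647: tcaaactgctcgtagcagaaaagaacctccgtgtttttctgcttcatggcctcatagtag

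For HSPD1, A_72_P110291 starts at base 652 in the numbering of the array files and stood apart from the other HSPD1 probes. A_72_P666425 (start 1688) and A_72_P682104 (start 1697) overlap by a shared run of 36 bases, given in capitals, and show how closely neighbouring probes read.

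HSPD1 A_72_P110291: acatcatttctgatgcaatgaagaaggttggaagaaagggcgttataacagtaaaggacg

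HSPD1 A_72_P666425: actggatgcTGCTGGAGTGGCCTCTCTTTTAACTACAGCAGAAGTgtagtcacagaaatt

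HSPD1 A_72_P682104: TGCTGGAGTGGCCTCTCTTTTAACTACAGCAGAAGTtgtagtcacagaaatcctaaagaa

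For HSPE1, O8477 is shown because it went against the other 5 probes of the gene, beside A_72_P752325, whose end it overlaps. Bases 1 to 26 of O8477 lay on bases 35 to 60 of A_72_P752325 with 25 identical bases and the substitution G45A, counted from base 1 at the 5′ end of A_72_P752325, with its base first and that of O8477 last. The capitals mark the longest shared run, 15 bases. The remaining bases of O8477 lie beyond the end of A_72_P752325, and whether they belong to the mature HSPE1 transcript was not tested.

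HSPE1 O8477: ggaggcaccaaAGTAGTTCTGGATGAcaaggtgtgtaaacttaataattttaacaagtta

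HSPE1 A_72_P752325: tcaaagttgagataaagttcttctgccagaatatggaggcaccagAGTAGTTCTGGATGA

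HSPA9 and CLPP were each read by a single kept probe, shown because every value given for these genes rests on it. As printed, O9126 holds 2, 1 and 2 stop codons in its 3 reading frames, whereas 2 frames of its reverse complement hold none. O12159 has open frames on both strands, so its frames do not settle its strand. The HSPA9 and CLPP values below are therefore those of these probes, and may not be the levels of the genes.

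HSPA9 O9126: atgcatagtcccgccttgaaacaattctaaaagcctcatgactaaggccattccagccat

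CLPP O12159: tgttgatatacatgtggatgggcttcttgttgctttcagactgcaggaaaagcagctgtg

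The chaperonin was addressed first. HSPD1 differed little between HS and TN, and was lower in F1 than in Creole pigs on 6 of its 21 probes. Its brightest probe, A_72_P695270, read 13.46, 13.32, 13.30, 13.22 and 13.29 in LW TN and 13.38, 13.57, 13.35, 13.20, 13.29 and 13.32 in LW HS. It read 13.40, 13.55, 13.28, 13.35 and 13.25 in CR TN and 13.38, 13.30, 13.33, 13.46, 13.31 and 13.30 in CR HS. The 22 LW and CR arrays thus lay between 13.20 and 13.57 with no shift between temperatures. F1 TN pigs read 13.35, 13.08, 13.32, 13.08, 13.06 and 13.16, and F1 HS pigs 13.07, 12.61, 13.15, 13.49 and 12.70. The F1 pigs reached lower than either parental breed but overlapped both, and F1 HS 2 and F1 HS 5 were the lowest arrays of the series.

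HSPD1 on A_72_P695270 was lower by 0.26 in F1 than in CR, with a mean of 13.10 ± 0.26 (SD, n = 11) against 13.35 ± 0.09 (n = 11). The difference of -0.26 had an SE of 0.07 and a limma adjusted p of 0.0247. Within TN pigs alone it was -0.19 and within HS pigs alone -0.34. It was negative on each of the 5 slides that held the arrays, at -0.31, -0.31, -0.10, -0.22 and -0.32. Against LW, F1 differed by -0.25 (SE 0.07, limma adjusted p 0.081), which did not pass the threshold, and LW against CR gave -0.02 (95% interval -0.17 to 0.13). Beside this F1 minus CR difference, the 6 posterior lobe and glial genes had a median of -0.24, with S100B lower in F1 by -0.39 (limma adjusted p 0.0424). Among the 6 endothelial genes (median -0.06), TEK was lower by -0.75 (adjusted p 0.00827) and KDR higher by 0.59 (0.0098). The medians of the blood, leukocyte and anterior pituitary lists were -0.04, -0.10 and 0.01. The part of these cells in the HSPD1 and HSPE1 differences was not tested.

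Over all member probes, F1 against CR passed the adjusted threshold of 0.05 in limma for 7 of 31, all lower in F1. Of all 47083 probes, 6.66% passed in this comparison and 3.31% were lower in F1. The 7 were 6 HSPD1 probes and O8477 of HSPE1, so they represent 2 genes and not 7 separate observations, and 4 of the 6 HSPD1 probes, those that start from base 1917 on, overlap each other in a chain. The count rested on few animals. Without F1 HS 2 no member probe passed, without F1 HS 5 only 1 did, without CR HS 4 there were 2, and without F1 HS 4 or F1 HS 3 there were 12 and 11. Of all probes, 2037 to 4182 passed in this comparison when single arrays were left out. With the processed intensity scaled to the 75th percentile of each array the count of member probes was 0, beside 2649 of all probes. The A_72_P695270 difference was then -0.22 (limma adjusted p 0.156).

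The array files number the first base of 20 HSPD1 probes. The probes were split by this start after their values had been seen, into the first, the last 4 and the 15 between. The 15 probes that start between bases 1435 and 1987 were all lower in F1 than in CR, by -0.30 to -0.09 with a median of -0.25. Of these, 6 passed the threshold, and the adjusted p of the 15 ran from 0.0247 to 0.475. The largest difference was that of A_72_P610034 (start 1917), at -0.30 (SE 0.09, limma adjusted p 0.0344). Whether a probe passed did not separate it from its neighbours. A_72_P682104 passed at -0.25 (limma adjusted p 0.0414), and A_72_P666425, which shares 36 bases with it, had -0.24 and an adjusted p of 0.0971. The 4 probes that start between 2185 and 2209 ranged from -0.10 to 0.15 in the same comparison, and A_72_P110291, at base 652, had 0.13 (95% interval -0.01 to 0.27). None of these 5 passed. The difference between these sets was not tested. The remaining probe, O3429, for which the files give no start and whose strand is not known here, had 0.07 (95% interval -0.05 to 0.18). A probe outside the rule, A_72_P359323, described as the human 60 kDa heat shock protein and found after the values had been seen, had -0.01 (SE 0.08, limma adjusted p 0.953).

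**Figure D1:**
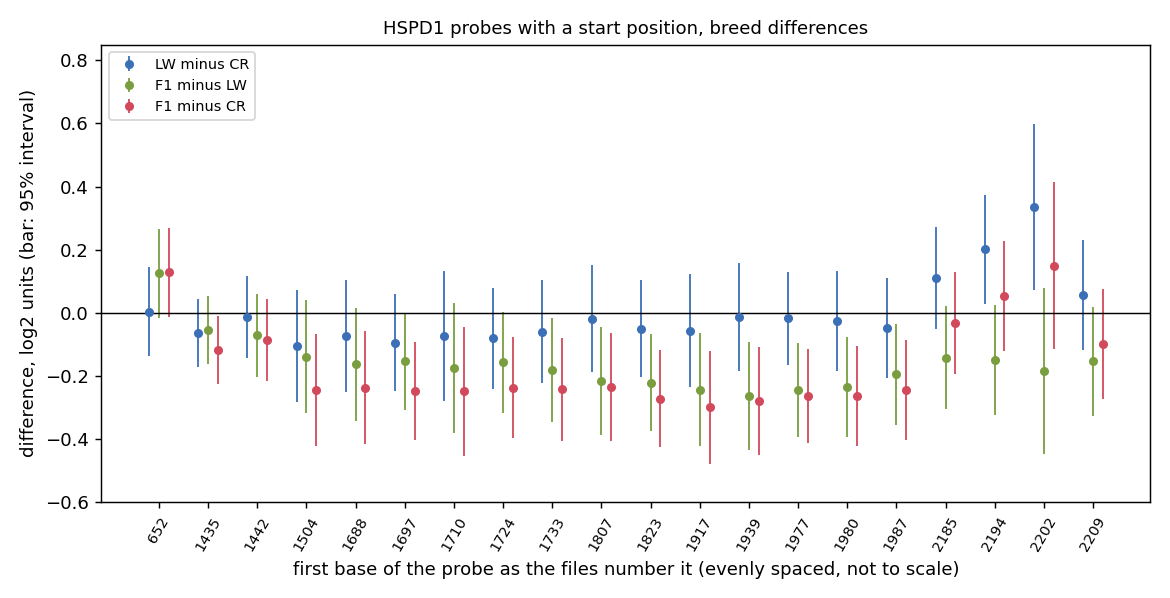
Breed differences of the 20 HSPD1 probes that have a start position, in log2 units on the vertical axis, against the first base of the probe, evenly spaced and not to scale; points are limma estimates over 33 arrays and bars are 95% intervals. Between bases 1435 and 1987 F1 minus CR lies between -0.30 and -0.09, whereas the probes from 2185 on range from -0.10 to 0.15.

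The same sets appeared in how the probes varied between pigs of a group. After removal of the 6 group means, the residuals of the 15 probes from 1435 to 1987 had pairwise correlations over the 33 arrays of 0.517 to 0.952 (median 0.855). The 4 probes from 2185 to 2209 had 0.733 to 0.928 among themselves. Between these sets the correlations were lower, 0.196 to 0.775. A_72_P110291 had -0.07 to 0.57 with the first set, and O3429 -0.20 to 0.28 with all 20 others. The points share arrays, and overlapping probes share bases. In LW against CR the probes from 2185 to 2209 ranged from 0.06 to 0.33, highest for A_72_P611693 (SE 0.13, limma adjusted p 0.13), and none passed. A slide effect passed the threshold for A_72_P261027, A_72_P611693 and A_72_P110291 (limma adjusted p 0.0111, 0.0368 and 0.0375), and for none of the 15 probes between 1435 and 1987. Of all kept probes, 14.6% showed a slide effect. The part of slide in these differences was not tested beyond the fits with slide as a block.

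Between HS and TN, the 21 HSPD1 probes ranged from -0.11 to 0.07, 17 of them below 0, with an SE of 0.04 to 0.11. Across all 47083 probes the median difference was 0.01 and 53.9% were above 0. A_72_P695270 had -0.05 (SE 0.06), with a mean of 13.28 ± 0.14 (n = 16) in TN and 13.25 ± 0.25 (n = 17) in HS.

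HSPE1, the lid of the chaperonin, was bright on its 6 probes, and 5 of them had an SD over all arrays of 0.13 to 0.28. A_72_P137646, the brightest, ranged from 15.04 to 15.24 in LW TN, 14.82 to 15.32 in LW HS, 14.86 to 15.12 in CR TN and 14.87 to 15.37 in CR HS. In F1 TN it ranged from 15.04 to 15.25 and in F1 HS from 15.10 to 15.34. All groups overlapped. HS minus TN was 0.03 (SE 0.05), and F1 minus CR was 0.10 (95% interval -0.02 to 0.22, limma adjusted p 0.366). The 4 other probes, O8477 apart, had 0.06 to 0.23 in F1 minus CR. The highest was A_72_P752325, at 0.23 (SE 0.08, limma adjusted p 0.0946), so none of the 5 passed. In F1 minus LW, A_72_P746004 had 0.32 (SE 0.11, limma adjusted p 0.133) and A_72_P752325 had 0.26 (SE 0.08, adjusted p 0.101).

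The sixth probe, O8477, gave separate levels. It read 13.63, 13.24, 12.81, 12.69 and 13.59 in LW TN and 10.50, 12.84, 12.68, 12.47, 13.38 and 13.52 in LW HS. In CR TN it read 13.26, 12.86, 13.33, 12.82 and 12.84, and in CR HS 13.44, 13.53, 12.63, 13.05, 13.45 and 12.83. All 11 CR arrays were thus at 12.63 or above. F1 TN pigs read 12.45, 12.91, 12.80, 11.38, 11.48 and 11.29, and F1 HS pigs 10.53, 10.53, 12.65, 12.89 and 13.48. The low values came from LW HS 1, F1 HS 1 and F1 HS 2, near 10.5, and F1 TN 4, 5 and 6, near 11.4, and no array lay between 11.48 and 12.45.

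The mean of O8477 was 12.04 ± 1.03 (n = 11) in F1 against 13.09 ± 0.32 (n = 11) in CR. The difference of -1.07 (SE 0.33) passed the threshold narrowly (limma adjusted p 0.041). It did not pass with slide as a fixed block (-1.035, adjusted p 0.0552), with no filter on dim probes (-1.072, adjusted p 0.0502) or when any of 12 of the 33 arrays was left out. Within slides it was -2.91, -1.50, -0.02, -0.89 and -0.99. The other HSPE1 probes did not show the low values. On LW HS 1, F1 HS 1 and F1 HS 2, A_72_P752325 read 14.05, 14.04 and 14.02, its 3 highest values among 33 arrays. On F1 TN 4, F1 TN 5 and F1 TN 6 it read 13.98, 13.96 and 13.83, and its highest value on any other array was 13.90 (CR HS 4). A_72_P752325 was thus high on the arrays where O8477 was low, although the ends of the probes overlap. This relation was not tested.

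**Figure D2:**
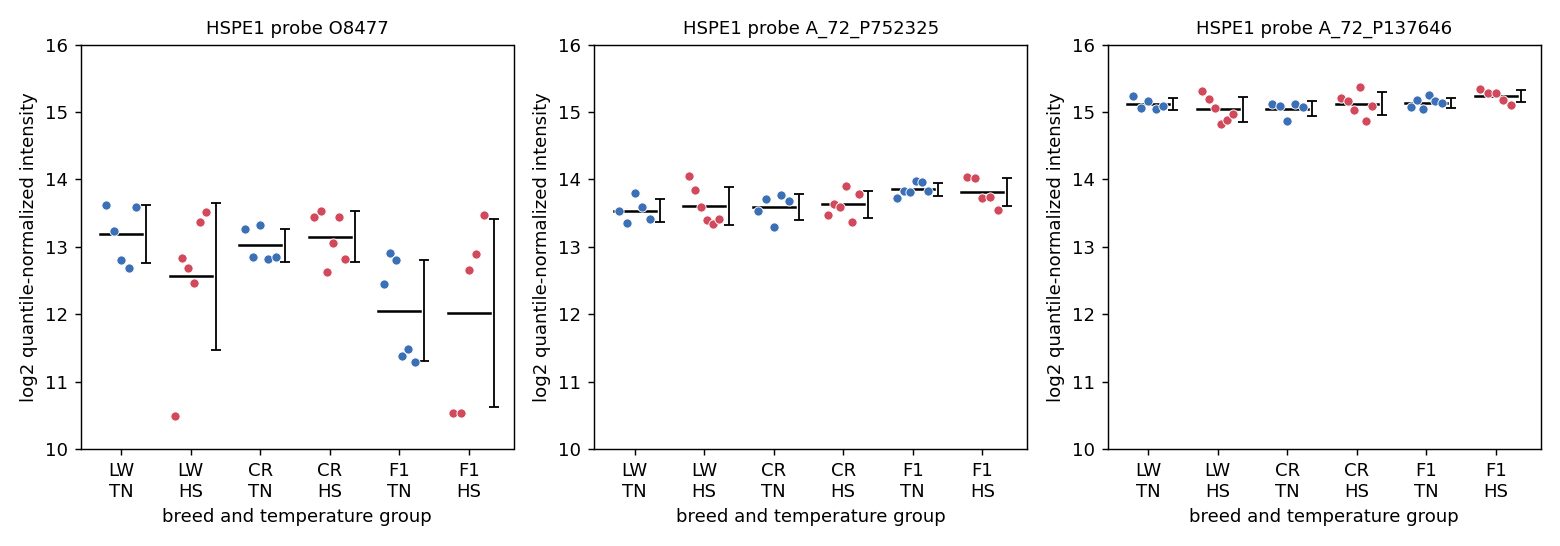
HSPE1 on 3 probes, log2 quantile-normalized intensity on the vertical axis, for each array (blue TN, red HS) in the 6 groups; the line is the group mean and the bar 1 SD (n = 5 or 6). O8477 spans 10.50 to 13.63 with 6 arrays below 11.5, whereas A_72_P752325 stays between 13.29 and 14.05 and A_72_P137646 between 14.82 and 15.37.

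HSPD1 and HSPE1 were then set against each other across pigs, since their genes are neighbours. Over the 33 arrays, with the 6 group means removed, the brightest probes had a Pearson's r of 0.23 (permutation p 0.16, adjusted 0.48) and a Spearman's rho of 0.35 (permutation p 0.058, adjusted 0.435). Pearson's r was 0.44 after the pair of arrays whose HSPD1 residuals lay farthest from their median was dropped, and 0.15 with slide removed. The relation did not pass the threshold. With the processed intensity scaled to the 75th percentile r was 0.53 (adjusted permutation p 0.0045). The relation thus depended on the processing, in which the intensity and the scaling were changed together. Among the 15 pairs of the 6 genes, r ranged from -0.38 (TRAP1 and HSPA9, permutation p 0.032) to 0.42 (HSPE1 and CLPP, permutation p 0.0074). After Benjamini-Hochberg adjustment over the 15 pairs these were 0.24 and 0.111, and no pair passed. With the processed intensity 4 pairs passed, and 0 to 1 did when single arrays were left out.

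The probe of HSPA9, the import motor, was slightly higher in HS in each genetic group, with the strand of O9126 not known here. It read 6.98, 6.95, 7.05, 6.84 and 6.69 in LW TN and 7.22, 6.85, 7.11, 7.09, 7.01 and 7.19 in LW HS. In CR TN it read 7.09, 6.80, 6.76, 6.94 and 6.88, and in CR HS 7.04, 7.01, 6.98, 6.82, 6.94 and 6.96. F1 TN pigs read 6.94, 6.94, 7.07, 6.94, 6.96 and 6.87, and F1 HS pigs 7.02, 7.02, 6.89, 7.25 and 7.11. TN and HS overlapped in all breeds. The difference was 0.11 (SE 0.04), and 14 of 17 HS pigs lay above the TN mean of their own breed. It was 0.18 in LW, 0.06 in CR and 0.10 in F1, and positive within each of the 5 slides (0.03 to 0.22). No breed comparison of HSPA9 passed. LW minus CR was 0.07 (95% interval -0.04 to 0.18), F1 minus CR 0.08 (-0.03 to 0.19) and F1 minus LW 0.01 (-0.10 to 0.12).

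GRPEL1, the partner of HSPA9, had no probe by the rule. A probe described in words as GrpE protein homolog 1 of cattle, A_72_P184786, was found after the values had been seen. On it HS minus TN was 0.10 (SE 0.05), with 13 of 17 HS pigs above their TN mean, and LW minus CR was -0.17 (SE 0.06, limma adjusted p 0.0876).

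TRAP1 had the clearest breed difference and the widest difference between HS and TN among the members. Probe A_72_P063446 read 9.41, 9.01, 8.56, 8.58 and 9.20 in LW TN and 8.71, 9.80, 9.20, 9.43, 9.39 and 9.16 in LW HS. In CR TN it read 9.83, 9.78, 9.54, 9.38 and 9.80, and in CR HS from 9.32 to 10.12 with a median of 9.90. Of the 11 LW pigs, 7 lay below all CR pigs, and the ranges, 8.56 to 9.80 and 9.32 to 10.12, overlapped. F1 TN pigs read 9.40, 9.35, 8.44, 9.34, 9.33 and 9.92, and F1 HS pigs 9.61, 9.61, 10.16, 9.83 and 9.98. The lowest value of all arrays was that of F1 TN 3.

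TRAP1 was lower in LW than in CR. The mean was 9.13 ± 0.39 (n = 11) against 9.76 ± 0.25 (n = 11), a difference of -0.63 (SE 0.14, limma adjusted p 0.00385), or 1.54-fold higher in CR. It was -0.71 within TN pigs and -0.55 within HS pigs, and negative on each of the 5 slides (-1.05 to -0.17). TRAP1 was the only member probe of 31 that passed in LW against CR, where 6.53% of all probes passed and 2.99% were lower in LW. It passed whichever of the 33 arrays was left out (adjusted p 0.000809 to 0.00895) and under each of the 9 other settings run (0.000584 to 0.0248), which took LW HS 3 as Creole in 1 case. The difference rests on 1 kept probe, and whether the breeds differ in the bases it reads was not tested. The tissue was also a mixture of cells, so fewer cells with TRAP1 and less TRAP1 RNA per cell cannot be told apart.

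Over both temperatures the F1 mean of TRAP1, 9.54 ± 0.47 (n = 11), lay between those of the parental breeds. F1 minus LW was 0.44 (95% interval 0.16 to 0.73, limma adjusted p 0.0996) and F1 minus CR -0.18 (95% interval -0.46 to 0.10, limma adjusted p 0.493). By temperature, F1 minus CR was -0.37 in TN and 0.01 in HS, and F1 minus LW was 0.35 in TN and 0.56 in HS. In F1 against LW no member probe passed in limma, where 1.43% of all probes did. An unadjusted limma p under 0.05 was reached by 13 of 31 member probes, a larger share than the 13.7% of all probes. These 13 were probes of HSPD1, HSPE1 and TRAP1 alone, so they are not 13 separate observations. Without F1 TN 3, F1 minus LW in TRAP1 was 0.54 and passed (limma adjusted p 0.0203), and it also passed with array weights (0.48, adjusted p 0.0239).

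Between HS and TN, TRAP1 had a mean of 9.64 ± 0.39 (n = 17) against 9.30 ± 0.46 (n = 16). The difference was 0.35 (SE 0.11), or 1.27-fold, and 15 of 17 HS pigs lay above the TN mean of their breed. By breed it was 0.33 in LW (SE 0.20), 0.17 in CR (SE 0.20) and 0.54 in F1 (SE 0.20). Every HS pig of F1 lay above the F1 TN mean, and TN and HS overlapped in each breed. The difference was uneven across slides, at -0.17, 0.19, 0.58, 0.78 and -0.06 with breed means removed. The other TRAP1 probe, O10647, was well above background on only 10 of 33 arrays and gave no level. Its strand is not known here, so this says nothing of the level of TRAP1.

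**Figure D3:**
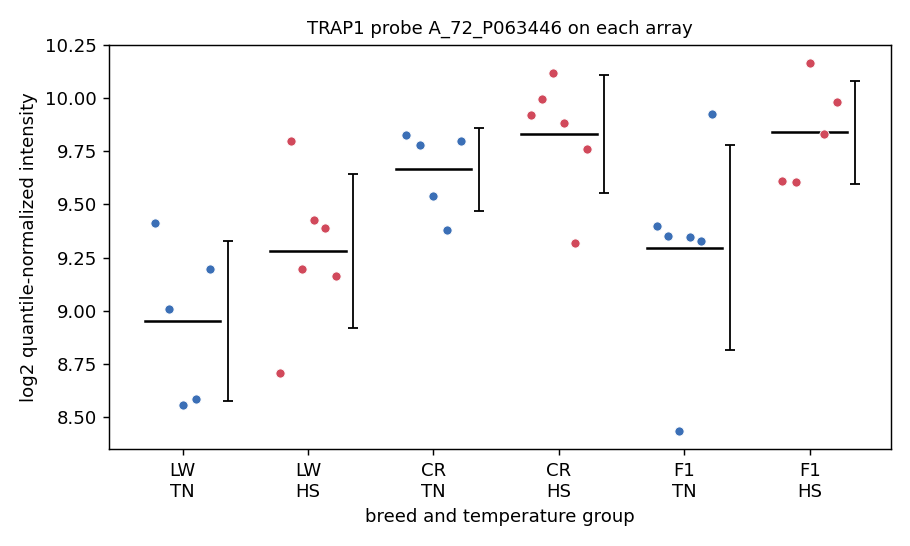
TRAP1 probe A_72_P063446, log2 quantile-normalized intensity on the vertical axis, for each array in the 6 groups (blue TN, red HS); the line is the group mean and the bar 1 SD (n = 5 or 6). LW arrays lie between 8.56 and 9.80 and CR arrays between 9.32 and 10.12, and the F1 TN group holds the lowest array, 8.44.

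The proteases differed little between the groups. LONP1 (A_72_P131786) had the smallest spread of the kept member probes, with an SD of 0.09 over all arrays. It ranged from 13.68 to 13.85 in LW TN and 13.71 to 13.80 in LW HS, and from 13.64 to 13.84 in CR TN and 13.66 to 13.81 in CR HS. In F1 TN it read 13.63, 13.50, 13.67, 13.75, 13.70 and 13.42, and in F1 HS 13.86, 13.82, 13.75, 13.79 and 13.79. Each F1 HS pig was thus above 5 of the 6 F1 TN pigs. HS minus TN was 0.06 overall (SE 0.04), with 0.19 in F1 (SE 0.06) and -0.01 in both LW and CR.

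That difference between breeds did not survive adjustment. LONP1 was the only member probe with an unadjusted p under 0.05 for the interaction of breed and temperature (p 0.0367, limma F-test, adjusted p 0.925). No member probe of 31 passed for the interaction, and none of the 47083 probes did (0%), with 4.29% at an unadjusted p under 0.05. In the breed comparisons LONP1 had -0.01 for LW minus CR (95% interval -0.10 to 0.08), -0.04 for F1 minus LW (-0.13 to 0.05) and -0.05 for F1 minus CR (-0.14 to 0.04).

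The CLPP probe O12159, of unknown strand, was dim and well above background on 28 of 33 arrays. It ranged from 5.23 to 5.94 in LW TN, 5.48 to 5.80 in LW HS, 5.50 to 5.62 in CR TN and 5.39 to 5.83 in CR HS. In F1 TN it ranged from 5.40 to 5.86 and in F1 HS from 5.46 to 5.92. LW TN was split, with 5.94 and 5.80 in pigs 1 and 3 and 5.23 to 5.30 in the other 3. HS minus TN was 0.05 (SE 0.06), and the breed differences were -0.04, 0.10 and 0.06 for LW minus CR, F1 minus LW and F1 minus CR, none past the threshold (limma adjusted p 0.641 to 0.881).

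AFG3L2 could not be followed. Its single probe by the rule, A_72_P155036, named through a rat protein, was well above background on 1 of 33 arrays. A probe described as AFG3-like protein 2 of cattle, A_72_P337693, again found after the values had been seen, was well above background on all 33. On it HS minus TN was -0.17 (SE 0.09), and no breed comparison passed (limma adjusted p 0.623 to 0.851).

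**Figure D4:**
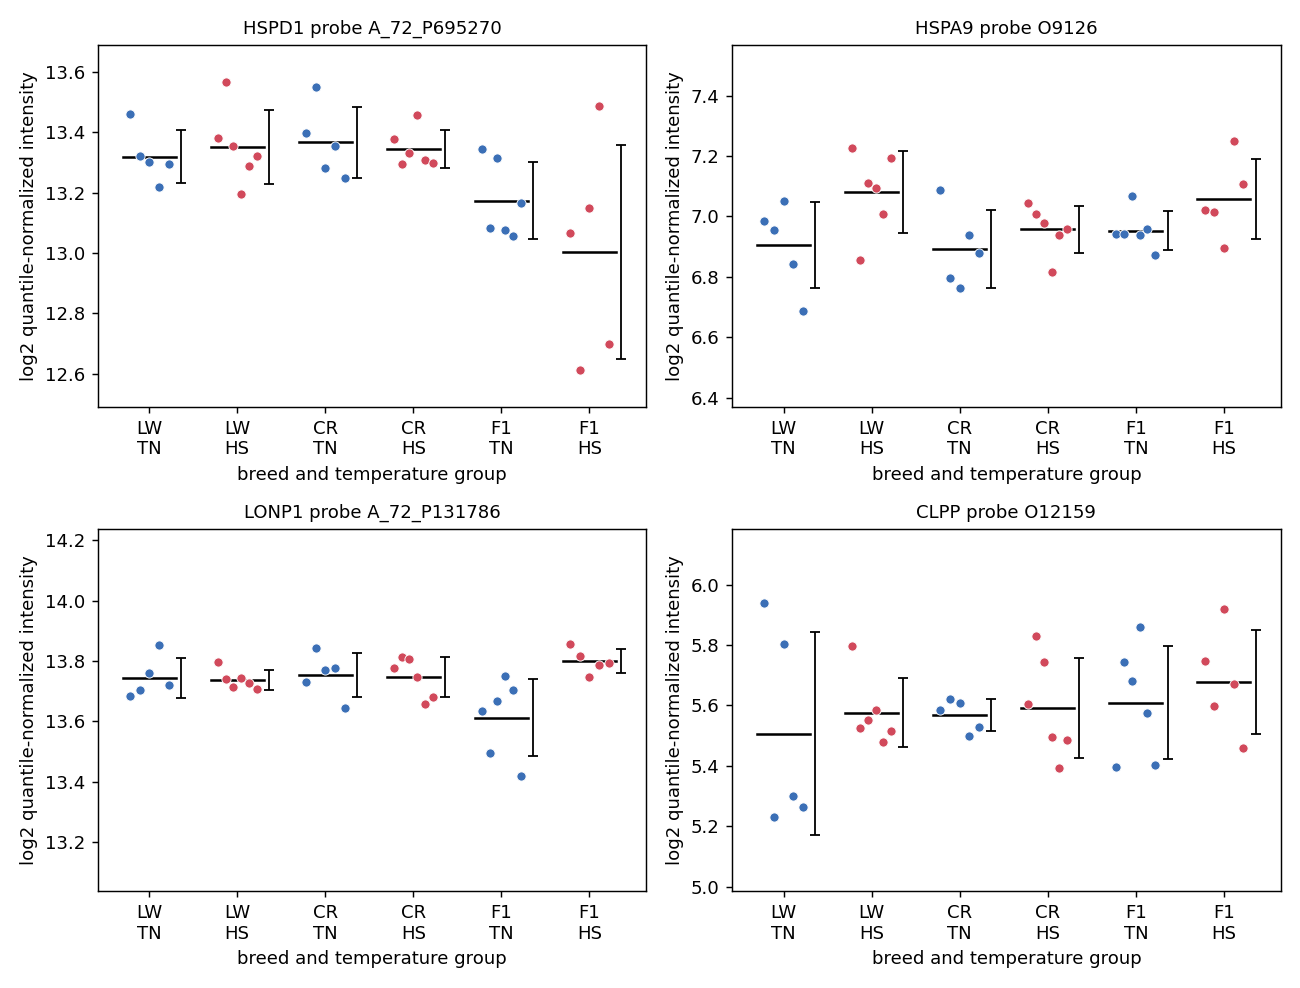
HSPD1, HSPA9, LONP1 and CLPP on the brightest kept probe of each, log2 quantile-normalized intensity on the vertical axis (each panel spans 1.2 log2 units), for each array in the 6 groups (blue TN, red HS); the line is the group mean and the bar 1 SD (n = 5 or 6). F1 pigs reach the lowest HSPD1 values, 12.61 and 12.70 in F1 HS, and in LONP1 the TN and HS means lie farther apart in F1 than in LW or CR.

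Taking the brightest probe of each gene, 5 of the 6 members with a kept probe were higher in HS than in TN, with a median of 0.06. HSPA9 and CLPP were among these 5. They were read by O9126 and O12159, of unknown strand, so their values may not be the levels of the genes. Among 9782 named genes taken in the same way, 59% were higher in HS and the median was 0.02. The members' count is a description, since they were proposed with these differences known.

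**Figure D5:**
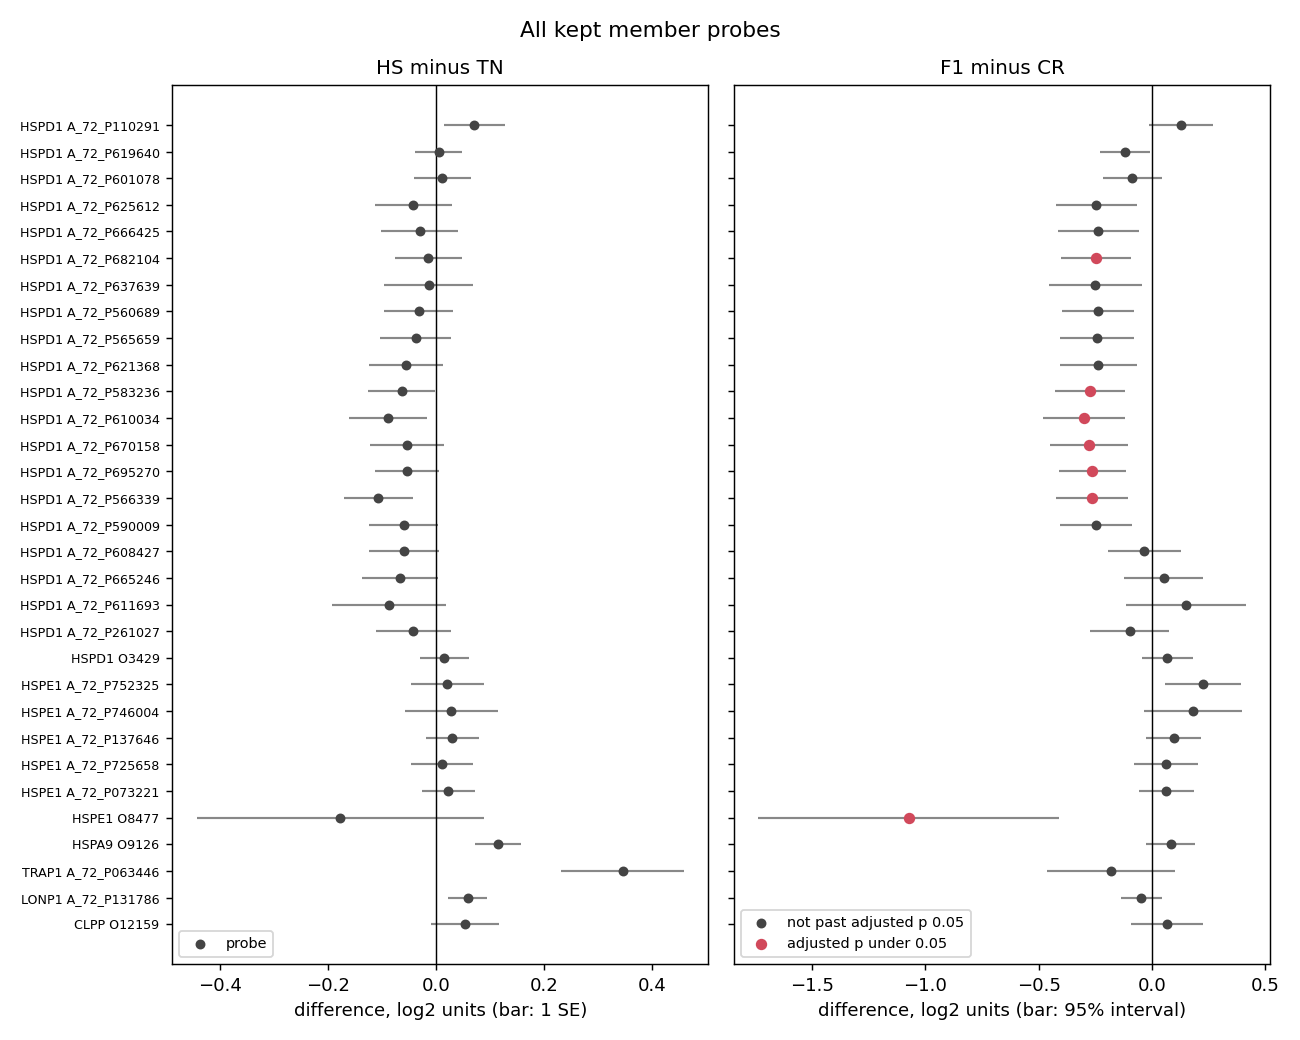
Difference between HS and TN (left) and between F1 and CR (right) for each of the 31 kept member probes, in log2 units, on different scales; points are limma estimates over 33 arrays, bars are 1 SE on the left and 95% intervals on the right, and red marks an adjusted p under 0.05. TRAP1 lies at 0.35 on the left, and on the right 6 HSPD1 probes and O8477 are red.

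For each member the named genes whose residuals varied most like its own over the 33 arrays were listed, among 19820 probes with a symbol and no missing value. TRAP1 followed CLDN9, which encodes a tight junction protein, with r 0.90 on probe A_72_P678417. That probe was also lower in LW than in CR, by -0.71 (SE 0.22, limma adjusted p 0.0458). The other CLDN9 probe, A_72_P441129, had r -0.06 with TRAP1 and 0.11 for LW minus CR (limma adjusted p 0.683), so the likeness held for 1 of the 2 CLDN9 probes. DNASE1 (r 0.64) and PHF2 (r 0.62) came next. In the RefSeq table DNASE1 is the direct neighbour of TRAP1 and the annotated genes overlap, while CLDN9 lies on the same chromosome with 48 genes between and PHF2 with 223. DNASE1 had 0.22 for LW minus CR (limma adjusted p 0.371), the opposite sign to TRAP1. PHF2 (O13955, strand not known here) differed between LW and CR by -1.24 (limma adjusted p 1.2e-05). Between F1 and LW it differed by 1.08 (limma adjusted p 0.00124).

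HSPD1 followed NDUFS4 (r 0.91), a subunit of respiratory complex I, CNTN3 (r 0.89) and ATP5A1 (r 0.88), the alpha subunit of ATP synthase. NDUFS4 (O8754, strand not known here) was also lower in F1 than in CR, by -0.42 (SE 0.12, limma adjusted p 0.0295). ATP5A1 had -0.21 (limma adjusted p 0.0997). HSPE1 followed PFN2 (r 0.82), PSMB4 (r 0.81), a subunit of the proteasome, and PRDX2 (r 0.78), a peroxiredoxin. The highest values for the others were lower, 0.61 for HSPA9 (PIK3AP1), 0.66 for LONP1 (CCDC50) and 0.74 for CLPP (LRP10). These correlations were picked as the highest of many and carry no test.

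Other genes of mitochondrial protein handling were counted on their brightest kept probe. None of those in the 6 lists below passed in HS against TN, in which 0.0191% of all probes did by limma. At an unadjusted p under 0.05 the lists held 0, 1, 1, 0, 1 and 2 genes in the order given, against 930 of 9782 named genes. Among 12 other chaperones and co-chaperones, 10 were higher in HS, with a median of 0.04. The widest differences were those of HSCB, a co-chaperone of iron-sulphur cluster transfer (0.10), DNAJC30 (0.08) and BCS1L (0.08). PHB (O9228), a prohibitin, was lower in LW than in CR by -0.25 (limma adjusted p 0.0155). DNLZ (O6225), which keeps HSPA9 soluble, was higher in F1 than in CR by 0.17 (limma adjusted p 0.01). The strand of both probes is not known here.

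Among 14 other proteases and peptidases, 7 were higher and 7 lower in HS, with a median of 0.01. HTRA2 had 0.16, LACTB 0.14 and NLN -0.13. IMMP2L, an inner membrane peptidase, was lower in F1 than in CR by -0.29 (limma adjusted p 0.0188). Among 17 import genes, 13 were higher in HS, with a median of 0.03. TIMM17A, a subunit of the inner membrane translocase, had 0.13, GFER 0.12 and TOMM34 -0.09. MTX1 was higher in LW than in CR by 0.31 (limma adjusted p 0.00104) and in F1 than in CR by 0.23 (0.0181). TOMM5 (O8858, strand not known here) was lower in F1 than in CR by -0.38 (limma adjusted p 0.0368).

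Among 12 transcription factors and targets of the mitochondrial and integrated stress responses, 7 were higher in HS, with a median of 0.01, and none passed in any comparison. PSAT1 had -0.10, ASNS 0.10 and CHAC1 -0.06. Among 10 chaperones of the cytosol and endoplasmic reticulum, 5 were higher and 5 lower in HS, with a median of 0.01. HSPH1 had -0.15, HSP90AA1 0.14 and HSPA8 -0.14. HSPA4 was lower in LW (-0.55, limma adjusted p 0.0255) and in F1 (-0.70, 0.00604) than in CR, and HSPB1 was lower in LW than in CR (-0.20, 0.0462).

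Mitochondrial content was read from 14 genes, of which 10 were higher in HS, with a median of 0.03. CYCS, cytochrome c, had 0.17, COX4I1 0.13 and NDUFS1 0.07. CYCS was higher in LW than in CR (0.33, limma adjusted p 0.0234). UQCRC2 (O9206, strand not known here) was higher in F1 than in LW (0.42, limma adjusted p 0.041). PPARGC1A, a coactivator of mitochondrial biogenesis, was higher in F1 than in CR (0.28, limma adjusted p 0.0225). Beside the higher HSPA9 and TRAP1 values in HS, the mean of these 14 genes ranged from 12.51 to 12.66 in TN and from 12.45 to 12.72 in HS. Markers of other cells had lower values in HS, although of these only HBB passed the threshold. All 6 measured genes of the blood list were lower in HS (median -0.15). HBB (O859, strand not known here) had -1.15 (limma adjusted p 0.0307). All 6 genes of the endothelial list (median -0.18) and all 6 of the leukocyte list (median -0.05) were also lower in HS. Of the 6 posterior lobe and glial genes, 5 were lower (median -0.08), with -0.71 for MBP (limma adjusted p 0.481), and AVP had 0.02. The blood mean ranged from 8.25 to 8.92 in TN and from 7.88 to 8.62 in HS. In endothelial genes it ranged from 9.81 to 11.39 in TN and from 9.71 to 10.64 in HS. The anterior pituitary markers had a median of 15.61 in TN and 15.58 in HS. Beside the lower TRAP1 in LW, their median was 15.51 in LW and 15.64 in CR, and the endothelial median was 10.37 and 10.11. The part of cell content in the members' values was not tested.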

How the data were processed

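Pituitary RNA of 33 pigs was hybridised to Agilent porcine arrays with 1 colour (Cy3), 1 array per animal. The deposited scanner files hold, per the file headers, the intensity of each spot and its local background, a background-subtracted processed intensity, and other columns of 0 or 1 marks (well above background, saturated, outlier), made with Agilent Feature Extraction 10.10.1.1. The authors also deposited log2 values for 45667 probes, from the median intensity by quantile normalization after quality control.

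Here control and outlier spots were left out, the median intensity was quantile-normalized, log2 was taken and spots of a probe were averaged. A probe was kept if 75% of the arrays in any of the 6 groups showed it well above background (47083 of 60305). Against the deposited table the median absolute difference was 0.0038. Breed and temperature were fitted with limma 3.58.1 in R 4.3.3, with 1 mean per group for the interaction. All tests were two-sided, with Benjamini-Hochberg adjustment over the 47083 probes and a threshold of 0.05. The scripts were tested on simulated data. Pen, slaughter day and kinship, which the study's model holds, are not in the labels and were not fitted. The study arranged littermates in blocks within each breed. With litter not fitted, the SE and p values of the breed comparisons may be too small, and leaving out single arrays does not address this. Correlation tests permuted residuals within groups (100000 resamples).

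Members and gene lists were chosen with earlier results of these data known. By rule, all member probes were described, with the brightest kept probe in most detail, the 3 genes of each list with the widest difference between HS and TN, those past the threshold, and the 3 genes most like each member. Probe names came from the array design or from accessions in the RefSeq table (22434 probes with a symbol). Median intensity per array was 131 to 165 over a background of 20 to 47.5, 73.5% to 82.2% of spots were well above background, and none was saturated. The number of arrays limits the precision. Values were recomputed from the deposited table, the processed intensity and normexp correction (offset 50), and with other filters, slide blocks and array weights. They were also recomputed with LW HS 3 taken as Creole, without the breed term, and without each array. Plots were drawn with Python 3.11.15 and matplotlib 3.10.9.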

Additional observations from a re-analysis of the deposited data

Results flagged for a closer look

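In the 72 groups of 5 or 6 arrays examined (12 member probes in 6 groups each), 4 held an array far from the others, where about 1 in 20 groups is marked by chance. HSPE1 on A_72_P137646 read 14.86 in CR TN 3, against 15.08 to 15.12 in the other CR TN arrays. HSPE1 on O8477 read 10.5 in LW HS 1, against 12.47 to 13.52 in the other LW HS arrays. HSPD1 on A_72_P566339 read 13.17 in CR HS 4, against 12.96 to 13.01 in the others. CLPP on O12159 read 5.80 in LW HS 1, against 5.48 to 5.59. No member showed all HS pigs of 1 breed moving up and all of another moving down.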

How the results depend on the processing

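The TRAP1 difference between LW and CR kept its direction and its call in all 42 alternatives run. The other breed calls were less stable. With the processed intensity, F1 against CR had 0 member probes and 0 HSPD1 probes past the threshold, beside 2649 of all probes. O8477 was then -1.028 (limma adjusted p 0.0695). The correlation of HSPD1 and HSPE1 with this intensity was 0.5342, 1 of 4 pairs past the threshold. O8477 also lost its call with no filter (-1.072), with slide as a fixed block (-1.035) and with LW HS 3 as Creole (-1.046). Array weights gave 2 member probes in LW against CR and 5 in F1 against LW, beside 4507 and 2493 of all probes. When single arrays were left out, called member probes ranged from 1 to 2 in LW against CR, beside 2583 to 3536 of all probes. In F1 against LW they ranged from 0 to 3, beside 350 to 1136 of all probes. In F1 against CR they ranged from 0 to 12, beside 2037 to 4182 of all probes. Called HSPD1 probes in F1 against CR ranged from 0 to 11, with 0 without F1 HS 2 or F1 HS 5. O8477 ranged from -1.243 to -0.9153. The cause was not tested.

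Within slides, the HS minus TN values that moved by more than 1 SD between replicates were -0.1654, 0.7838 and -0.05823 for TRAP1 (slides 1, 4 and 5), 0.1352 for HSPD1 (slide 3), 0.1627 for HSPE1 (slide 2), 0.1501 and -0.04519 for LONP1 (slides 1 and 4) and -0.3286 and 0.3685 for CLPP (slides 1 and 2). Leaving out single arrays kept the sign of HS minus TN for all 6 genes, with 0.2862 to 0.3833 for TRAP1 and 0.09581 to 0.132 for HSPA9. Over all probes, HS against TN had 9 calls, with 23 for the processed intensity, 15 with the filter on all arrays, 91 and 58 with slide as a fixed or random block, 4 without breed and 6 to 38 without single arrays. LW against CR had 1842 with LW HS 3 as Creole. F1 against LW had 2493 with array weights, 426 with LW HS 3 as Creole and 350 to 1136 without single arrays. F1 against CR fell to 2037 at the lowest without single arrays. No paired analysis was possible because the labels give no replicate numbers that pair animals across groups. Dim signal limits the CLPP, unkept TRAP1 and AFG3L2 probes, the first 2 of unknown strand, and the correlations were not rerun under other filters, array weights or random blocks.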
